A study of Homo sapiens with 52 samples.

Results

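The comparison described here is that of WI-38 cells at day 0 of DNA damage response-dependent senescence (DDR-Sen day 0) with untreated WI-38 cells, over the genes whose mean normalized count in that comparison was at least 10. These genes number 15458 of the 59408 listed, and 34154 genes had a mean above 0. WI-38 is a line of normal human fetal lung fibroblasts that can divide a finite number of times and then enters senescence, a lasting exit from the cell cycle. DDR-Sen day 0 cells were young cells kept in 250 nM doxorubicin (DXR) for 24 h and collected at the end of that treatment. Untreated cells were young cells (population doubling level 32 to 46) of the same line, kept in the same growth medium without the drug. The labels name 2 samples in each group and do not say whether they came from separate cultures. The authors describe the 2 as independent without further detail. The p-values measure the spread between these samples, and how far that spread is technical is not known.

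Doxorubicin is an anthracycline that slips between base pairs and traps topoisomerase II on DNA while both strands are cut. Cells answer the breaks through the kinases ATM and ATR, which stabilize the transcription factor p53. p53 then raises genes that hold the cell cycle, repair DNA or prepare cell death, and the inhibitor p21, encoded by CDKN1A, keeps the RB family active and the cell-cycle genes silent. Day 0 is thus a picture of the first day of damage, before the secretory features of senescent cells usually appear.

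The deposited tables hold a mean over the 4 libraries of each comparison and no value of a single library. Whole reads per library were recovered from these means, and both libraries of each group could be read for 15165 of the 15458 genes. In 287 abundant genes, the lowest of them with a mean of 10174, the reads of the DDR-Sen pair could not be split, and for these the mean of the pair was compared with the 2 untreated libraries. For 6 genes (FN1, IGFBP5, ACTB, COL1A1, COL1A2 and MT-RNR2) the reads of the untreated libraries were not recovered and no value is given. Without those 6 genes, the DDR-Sen day 0 libraries held 49.8 M and 43.8 M counted reads and the untreated libraries 18.0 M and 14.6 M. The letters A and B name the larger and the smaller library of a group and are not the replicate numbers of the labels. Levels are given as normalized reads, that is reads divided by a scale factor of each library. Of the 10661 genes with both libraries recovered and a mean of at least 100, 79 differed more than 2-fold between the DDR-Sen libraries and 97 between the untreated ones.

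The cells carried fibroblast messages in both groups. The mesenchymal filament gene VIM had 79625 and 77428 normalized reads in the untreated libraries and a mean of 66910 in DDR-Sen, and the collagen fibril protein DCN had 42216 and 34361 against a mean of 39150. Of the 10 fibroblast markers, 8 could be compared and 1 fell, the growth factor receptor PDGFRA. It had 11154 and 9565 normalized reads in untreated cells and 6396 and 4664 in DDR-Sen. The 5 epithelial markers summed to 3908 and 3365 normalized reads in untreated cells and 3419 and 3122 in DDR-Sen, most of it from the keratins KRT18, KRT19 and KRT8, while the adhesion gene CDH1 had 0 and 0 reads against 10 and 6. The endothelial CDH5 and the lymphocyte genes CD3E and MS4A1 had between 0 and 2 reads in every library. Markers of white blood cells were low and higher after DXR: the 5 together summed to 26.1 and 28.1 normalized reads in untreated cells and 82.5 and 96.9 in DDR-Sen. PTPRC, the leukocyte phosphatase CD45, had no read in either untreated library and 17.7 and 22.7 normalized reads in DDR-Sen. The 4 endothelial markers summed to 41.4 and 52.5 normalized reads against 124 and 90, and the 4 neuronal markers to 198 and 169 against 238 and 284. Most of the endothelial sum was VWF, with 41.4 and 45 against 96.9 and 61.7 (limma voom, adjusted p = 0.139). PECAM1 had 0 and 3 raw reads against 27 and 21, and KDR 0 and 1 against 20 and 22. The reads of these genes and of CDH1 are not scaled, and the DDR-Sen libraries were deeper. The part of other cell types in the results was not tested. Fewer cells of a kind and less RNA per cell cannot be told apart in such bulk samples.

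After 24 h of DXR, 2042 of the 15165 genes were higher (13.5%) and 2306 were lower (15.2%), together 28.7%, at an adjusted p-value under 0.05 by limma voom. The median log2 fold change was 0.74 among genes called higher and -0.62 among genes called lower, and 0.00 over all genes tested. A log2 fold change of at least 1 was reached by 742 of the higher genes (4.89% of all tested) and 604 of the lower ones (3.98%), or 8.88% in all. Among the genes called, 57 were lower by 4 or more on the log2 scale and 29 were higher by 4 or more. The count depended on the untreated libraries: 1651 genes were called either way without untreated library A and 1966 without untreated library B, against 4348 with both. The 15 deepest falls among genes with a mean of at least 100 were those of genes that act in mitosis or chromosome segregation. The 15 with the largest rises include the p53 targets GDF15 and TNFRSF10C, a histone gene and several metabolic enzymes. Of the 287 genes tested with the pooled DDR-Sen library, 73 were higher and 43 lower. That test, run over all 15452 genes, called 14.3% higher and 15.1% lower, or 29.4% either way. It treats the pooled column as varying like a single untreated library.

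**Figure D1:**
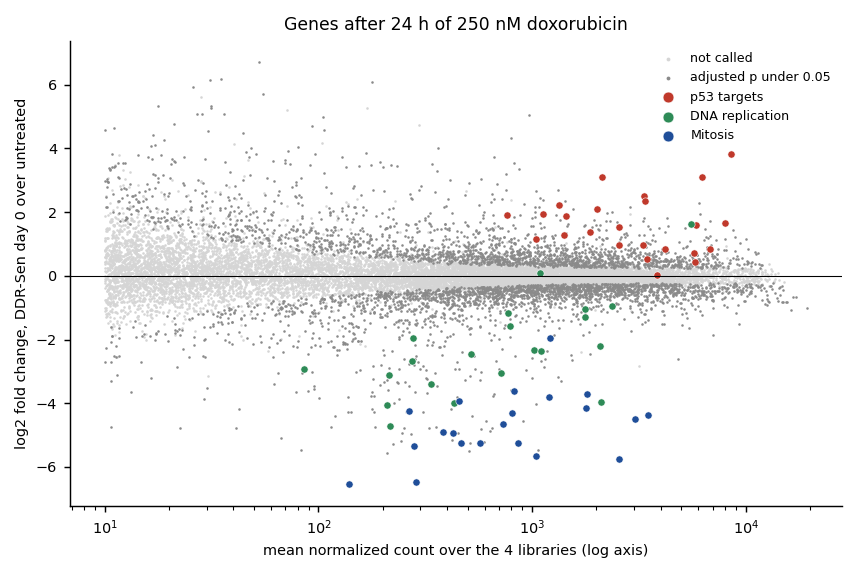
Log2 fold change of DDR-Sen day 0 over untreated cells (y axis) against the mean normalized count over the 4 libraries (x axis, log scale) for the 15165 genes with both libraries of each group recovered, with p53 targets in red, DNA replication genes in green and mitosis genes in blue. The red points lie at 0.04 or above, the blue points at -1.96 or below, and PCNA is the green point near the red ones.

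The p53 targets rose almost as a whole. Of the 27 listed genes, SESN2 was listed at 0 in every library and 26 were measured. Of the 24 with both libraries recovered, 23 were higher, none was lower and BAX did not pass the test, with a median log2 fold change of 1.56. The other two, CDKN1A and TNFRSF10B, were higher in the pooled test. The background is the 13.5% of all genes called higher and the median of 0.00.

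CDKN1A, which encodes the cyclin-dependent kinase inhibitor p21, had 23875 and 25822 normalized reads in the untreated libraries, so it was abundant before the drug. Its DDR-Sen mean was 2.09 ± 0.09 (SE) higher on the log2 scale (adjusted p = 1.61e-05, pooled test). MDM2, the ubiquitin ligase that degrades p53, had 3909 and 3831 normalized reads in untreated cells and 11253 and 13178 in DDR-Sen. The groups did not overlap, and the log2 fold change was 1.65 ± 0.10 (adjusted p = 0.000128). PPM1D, the phosphatase that switches off ATM and p53, rose by 1.15 ± 0.13, so these negative regulators, MDM2 and PPM1D, were both higher.

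GDF15, a secreted stress cytokine encoded at chr19:18386158-18389176 (GRCh38), showed the largest rise on the list. It went from 1157 and 1060 normalized reads to 12674 and 19398, a log2 fold change of 3.82 ± 0.22 (adjusted p = 0.000128). TP53I3, a quinone oxidoreductase, went from 1241 and 1255 to 7822 and 14843, and CYFIP2, an actin regulator, from 467 and 399 to 2917 and 4742. In each of these 3 genes library B of DDR-Sen lay well above library A, and both lay above the untreated pair. The same order held in 68.9% of all genes called higher, against 51.1% of all genes tested, with a median log2 ratio of library B to A of 0.08.

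Targets of the p53 program with other roles moved by smaller amounts. TP53INP1 and the metabolic genes FDXR and TIGAR rose by 2.51 ± 0.16, 2.34 ± 0.18 and 2.22 ± 0.16 on the log2 scale. Genes that damp growth or oxidants, BTG2 and SESN1, rose by 2.11 ± 0.19 and 1.95 ± 0.18. Repair genes of the nucleotide excision pathway, XPC and DDB2, rose by 1.52 ± 0.12 and 1.28 ± 0.10, the ribonucleotide reductase subunit RRM2B by 1.59 ± 0.11 and the translesion polymerase POLH by 0.96 ± 0.11.

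The genes of cell death on the list did not move alike. BBC3, the BH3-only protein PUMA, went from 360 and 283 normalized reads to 1049 and 1390, a log2 fold change of 1.90 ± 0.22 (adjusted p = 0.00173). The death receptor genes FAS and TNFRSF10B rose by 0.96 ± 0.09 and 1.27 ± 0.08 (TNFRSF10B in the pooled test). BAX, the pore-forming effector, had 3805 and 3816 normalized reads in untreated cells and 3946 and 3893 in DDR-Sen, without overlap but a log2 fold change of 0.04 ± 0.07 (adjusted p = 0.704). The smallest rises that passed the test were those of CCNG1 (0.42 ± 0.08) and the exonuclease AEN (0.54 ± 0.10).

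**Figure D2:**
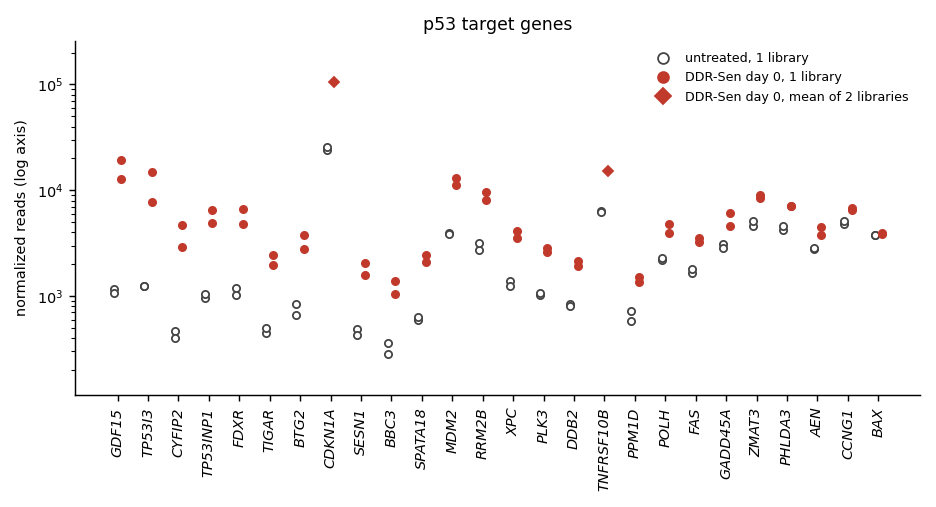
Normalized reads (y axis, log scale) of the 26 measured p53 targets in each untreated library (open circles) and each DDR-Sen day 0 library (filled circles), with diamonds for the mean of the DDR-Sen pair where it could not be split, ordered by fold change. The groups are far apart in GDF15, with a log2 fold change of 3.82, and close together in BAX, with 0.04.

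Genes of mitosis fell in every case tested. All 21 listed genes were lower, with a median log2 fold change of -4.65, where 15.2% of all genes were lower. MKI67, the proliferation marker that coats mitotic chromosomes, had 5622 and 4406 normalized reads in untreated cells and 88.0 and 97.6 in DDR-Sen. Its log2 fold change was -5.75 ± 0.20 (adjusted p = 2.97e-05). CENPA, the histone variant of centromeres, had 302 and 247 normalized reads in untreated cells and 4.98 and 1.26 in DDR-Sen, the latter from 9 and 2 reads. The kinesin KIF18B, with 618 and 513 against 3.87 and 10.1, was the next in size. In all 3 genes both DDR-Sen libraries lay far below both untreated libraries.

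CDK1, the kinase that drives entry into mitosis, went from 913 and 895 normalized reads to 19.9 and 29, a log2 fold change of -5.23 ± 0.23. Its partner cyclins CCNB1 and CCNB2 had log2 fold changes of -3.82 ± 0.11 and -3.93 ± 0.20. CDC20, which activates the anaphase-promoting complex, went from 2135 and 1939 to 38.7 and 40.9. AURKA, a spindle pole kinase, showed the smallest fall on the list, from 1992 and 1875 normalized reads to 499 and 495, a log2 fold change of -1.96 ± 0.09. The 15 deepest falls also hold the spindle and kinetochore genes NEK2, ASPM, NDC80, NUF2, KIF2C, HJURP, BUB1 and KIF20A, the mitotic kinase PBK and the microtubule protein GTSE1, with log2 fold changes between -5.56 and -5.24. CENPA shares exon sequence on the same strand with SLC35F6 in the annotation, and NUF2, KIF2C, HJURP and KIF20A overlap exons of genes on the other strand, so some of their reads could belong to those genes.

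Many promoters of mitotic genes carry a CCAAT box and a cell cycle homology region (CHR), the element through which the repressor complex DREAM holds these genes off outside of late cell cycle phases. RefSeq promoters, the 250 bases before the start, were matched by symbol for 10541 of the 15165 tested genes. CCAAT was found in either orientation in 14 of 18 promoters of the mitosis list (77.8%) and in 34.6% of the tested genes. It was also found in 12 of 22 promoters of the p53 targets, in 37.1% of the genes called lower and in 34.7% of those called higher. The CHR letters TTTGAA or TTCGAA were found, on either strand, in 10 of 18 mitosis promoters (55.6%) and in 9.81% of the tested genes. Both together were found in 8 of 18 mitosis promoters and in 3.91% of the tested genes. The share was 6.99% of the genes called lower, 2.73% of the genes called higher and 5.24% of all 27305 promoters. The letters TTTNNCGC, of the kind E2F factors bind, were found on either strand in 9 of 18 promoters of the DNA replication list. They were found in 1 of 18 of the mitosis list and 5 of 22 of the p53 targets, against 8.94% of tested genes. A match is a description of letters and not a measured binding site. The stretches listed here hold a CCAAT and a CHR within 60 bases of each other. No run of 20 of their bases was found in an annotated transcript, while the first bases of CDK1 and TOP2A were. They are shown for 4 mitosis genes that fell and for TOP2A, a target of the drug. The sequences are from RefSeq (GRCh38.p14), 5′ to 3′ along the gene. Both motifs are in capitals, ATTGG and TTCAAA being the reverse orientations. In MKI67 a further TTTGAA, which is not marked, ends in the A of ATTGG.
MKI67, minus strand, chr10:128126428-128126485: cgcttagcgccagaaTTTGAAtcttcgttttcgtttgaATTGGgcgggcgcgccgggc
CDC20, plus strand, chr1:43358901-43358945: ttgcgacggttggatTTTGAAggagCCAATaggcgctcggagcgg
CDK1, plus strand, chr10:60778155-60778200: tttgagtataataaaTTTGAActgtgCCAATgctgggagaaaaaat
TOP2A, minus strand, chr17:40418027-40418071: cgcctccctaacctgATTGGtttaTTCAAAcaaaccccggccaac
KIF11, plus strand, chr10:92593062-92593122: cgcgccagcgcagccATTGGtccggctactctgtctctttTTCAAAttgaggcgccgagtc

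The DNA replication genes fell less far and had an exception. Of 21 genes, 19 were lower, 1 was higher and TYMS did not pass the test, beside 15.2% lower and 13.5% higher of all genes, with a median log2 fold change of -2.37. The deepest falls were those of MCM10, CDC45 and CDC6, which load or fire the replicative helicase. MCM10 went from 472 and 362 normalized reads to 16.6 and 14.5, a log2 fold change of -4.72 ± 0.31 (adjusted p = 0.000204). CDC6 went from 866 and 755 to 52.6 and 49.7 (-3.98 ± 0.17). The 6 subunits of the MCM2-7 helicase had log2 fold changes from -3.06 (MCM6) to -1.30 (MCM4). RRM2, the ribonucleotide reductase subunit of S phase, went from 4165 and 3766 normalized reads to 244 and 264, while its p53-induced counterpart RRM2B rose as given above.

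PCNA, the sliding clamp of DNA polymerases, which is also a p53 target and serves repair, was the exception. It had 2789 and 2600 normalized reads in untreated cells and 7264 and 9720 in DDR-Sen, a log2 fold change of 1.64 ± 0.15 (adjusted p = 0.000722). TYMS, thymidylate synthase, had 1074 and 1027 against 941 and 1352, with the untreated libraries inside the DDR-Sen range.

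**Figure D3:**
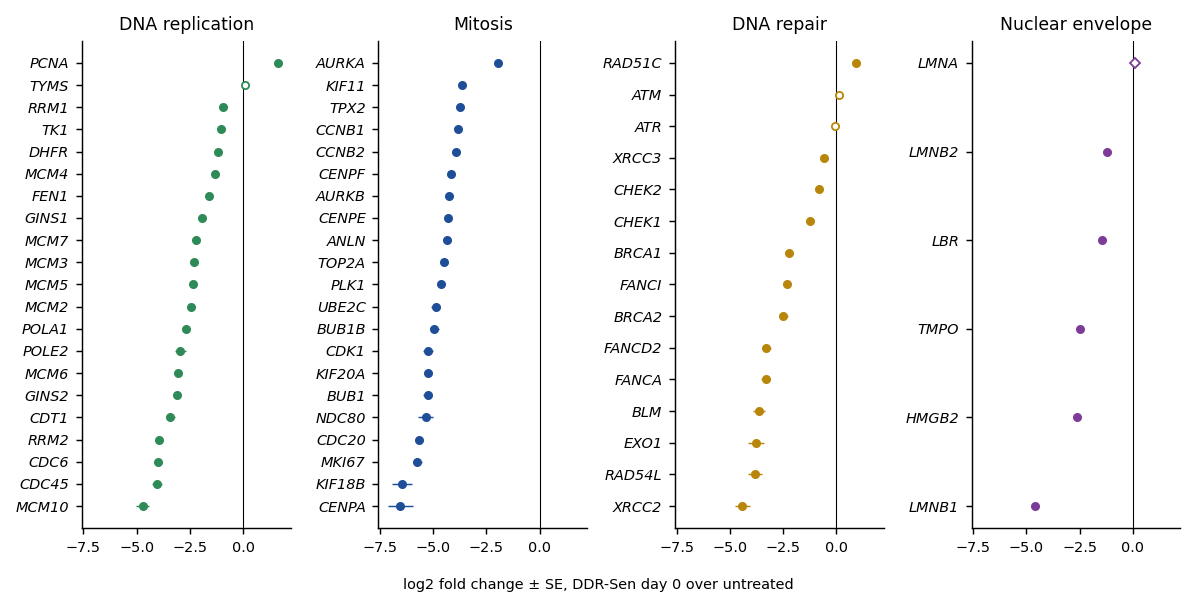
Log2 fold change with its standard error (x axis) for the genes reported here of 4 lists, filled where the adjusted p-value was under 0.05 and as a diamond where the DDR-Sen pair was pooled. The mitosis genes lie between -6.55 and -1.96, and PCNA and RAD51C are the filled points right of 0.

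Genes of DNA repair that act with replication fell as well. Of 16 genes, 13 were lower and 1 was higher, again beside 15.2% and 13.5% of all genes, with a median log2 fold change of -2.40. XRCC2 and RAD54L, which act in homologous recombination, had log2 fold changes of -4.41 ± 0.37 and -3.84 ± 0.33, and the nuclease EXO1 of -3.77 ± 0.36. BRCA1 and BRCA2 had log2 fold changes of -2.21 ± 0.13 and -2.48 ± 0.21, and the Fanconi anemia genes FANCD2, FANCA and FANCI of -3.28 ± 0.20, -3.32 ± 0.22 and -2.31 ± 0.16. RAD51C was the gene that rose, from 300 and 324 normalized reads to 516 and 690, by 0.93 ± 0.20 (adjusted p = 0.0162). That call was lost without either untreated library. The sensor kinase genes ATM and ATR had log2 fold changes of 0.15 ± 0.08 (adjusted p = 0.196) and -0.07 ± 0.09 (adjusted p = 0.616), while the checkpoint kinase genes CHEK1 and CHEK2 had -1.22 ± 0.16 and -0.81 ± 0.20, both lower.

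Among the topoisomerases, 2 of 5 genes fell, beside 15.2% of all genes. TOP2A, the topoisomerase II of dividing cells and a main target of doxorubicin, had 5993 and 5607 normalized reads in untreated cells and 232 and 290 in DDR-Sen, a 22.4-fold fall (log2 fold change -4.49 ± 0.12, adjusted p = 1.89e-05). TOP2B, its counterpart in resting cells, went from 4845 and 5032 to 3653 and 3269, a log2 fold change of -0.51 ± 0.08 (adjusted p = 0.00641), a call lost without either untreated library. TOP1 had 6050 and 5991 normalized reads in untreated cells against 5720 and 6254, within the spread of the DDR-Sen pair. TOP3A differed widely between the libraries of both groups, with 167 and 24.4 in untreated cells and 16.1 and 102 in DDR-Sen. The drug exporter genes ABCB1 and ABCC1 had log2 fold changes of 0.32 ± 0.16 (adjusted p = 0.183) and -0.31 ± 0.20 (adjusted p = 0.291).

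LMNB1, the lamin B1 of the nuclear envelope whose loss is a common mark of senescence, was already low at day 0. It had 1555 and 1323 normalized reads in untreated cells and 65.9 and 51.0 in DDR-Sen, a log2 fold change of -4.62 ± 0.19 (adjusted p = 4.24e-05). All 5 genes of the nuclear envelope list with both libraries recovered were lower, beside 15.2% of all genes, with a median of -2.47. The chromatin protein HMGB2 had a log2 fold change of -2.61 ± 0.14, the lamina-associated TMPO of -2.47 ± 0.11, the lamin B receptor LBR of -1.43 ± 0.14 and LMNB2 of -1.23 ± 0.07. LMNA, the lamin A/C gene, had 42102 and 40201 normalized reads in untreated cells and a log2 fold change of 0.12 ± 0.09 in the pooled test (adjusted p = 0.334).

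Histone genes were singled out after their values were seen. The replication-dependent histone genes lie in clusters, are copied mainly in S phase, and usually yield messages that end in a stem-loop in place of a poly(A) tail. Of the 29 that reached the mean of 10, 21 were higher and none was lower, beside 13.5% and 15.2% of all genes, with a median log2 fold change of 2.10. Because a gene low in untreated cells could reach that mean through its DDR-Sen level alone, the abundant members are the ones to read. H2BC8 had 87.3 and 97.4 normalized reads in untreated cells and 1192 and 1286 in DDR-Sen, a log2 fold change of 3.74 ± 0.19 (adjusted p = 7.32e-05). H2AC6 went from 1381 and 1746 to 4896 and 5227, the linker histone gene H1-2 from 515 and 678 to 2177 and 2887, and H4C8 rose by 2.41 ± 0.25. The groups were apart in each of these. H4C14 had no read in either untreated library and 99.1 and 15.1 normalized reads in DDR-Sen, so its plotted fold change depends on the count added before the logarithm. Near-identical copies share reads, so the values of single members are uncertain.

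Other histone genes, which are made outside of S phase or in addition to it, were divided. Of 12, 3 were higher and 5 were lower, beside 13.5% and 15.2% of all genes. H2AX, whose phosphorylated protein marks breaks, had 3034 and 2713 normalized reads in untreated cells and 838 and 840 in DDR-Sen, a log2 fold change of -1.78 ± 0.09 (adjusted p = 7e-05). H2AZ1 and H2AZ2, variants at promoters, had log2 fold changes of -1.52 ± 0.08 and -0.88 ± 0.08. H2AJ and MACROH2A1, histone variants that rose, had log2 fold changes of 0.65 ± 0.12 and 0.32 ± 0.07. The replacement histone genes H3-3A and H3-3B had log2 fold changes of 0.05 ± 0.09 and 0.27 ± 0.09 and did not pass the test.

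**Figure D4:**
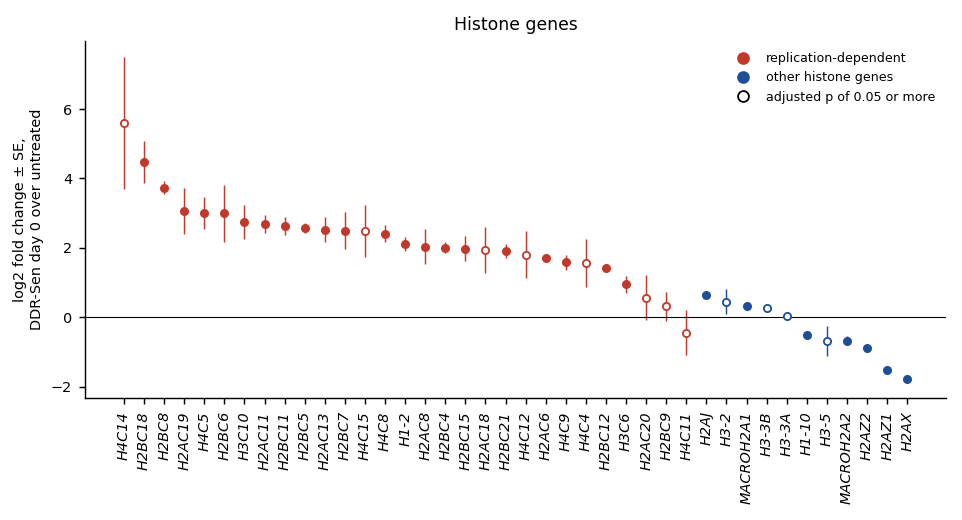
Log2 fold change with its standard error (y axis) of 29 replication-dependent histone genes (red) and the other histone genes reported here (blue), filled where the adjusted p-value was under 0.05. The filled red points lie between 0.95 and 4.48, and H2AX and H2AZ1 are the lowest blue points.

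Of the 14 listed secreted factors of senescent cells, CXCL2 and IL1A had a mean under 10 and IGFBP5 could not be read. Of 9 genes with both libraries recovered, 2 were higher (22.2%, beside 13.5% of all genes) and none was lower. These were the matrix proteases MMP1 and MMP3. MMP1 had 4038 and 6819 normalized reads in untreated cells and 14942 and 10076 in DDR-Sen, a log2 fold change of 1.23 ± 0.27 (adjusted p = 0.0167). MMP3 had 694 and 1422 against 3230 and 2698, a log2 fold change of 1.60 ± 0.28 (adjusted p = 0.0075). IGFBP7 rose by 0.63 ± 0.11 in the pooled test.

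The cytokine IL6 had 70.5 and 111 normalized reads in untreated cells and 112 and 168 in DDR-Sen (adjusted p = 0.199). The chemokine CXCL8 had 36.8 and 253 against 108 and 158, so the untreated pair spanned the DDR-Sen pair. IL1B had 4.6 and 5.62 normalized reads against 42.1 and 137. Both DDR-Sen libraries lay above the untreated pair, but they were far from each other and the adjusted p was 0.0936. The monocyte chemokine CCL2 had 726 and 1087 against 317 and 609 (adjusted p = 0.0586). The count on this list was sensitive to the libraries: 5 genes were higher without DDR-Sen library A and 1 without untreated library A.

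Of 8 interferon genes with both libraries recovered, 4 were higher and none was lower, beside 13.5% and 15.2% of all genes. IFIT1, MX1, OAS1 and DDX58 did not pass the test, with log2 fold changes of 0.64, 0.65, -1.30 and 0.02. IFIT2, an antiviral RNA-binding protein, had 227 and 195 normalized reads in untreated cells and 441 and 388 in DDR-Sen, a log2 fold change of 0.97 ± 0.16 (adjusted p = 0.00641). ISG15, a ubiquitin-like protein, had 1085 and 969 against 1540 and 1925 (0.74 ± 0.14). IFIT3 and IFI6 rose by 0.75 ± 0.16 and 0.92 ± 0.23. All 4 calls were lost without untreated library B. The interferon gene IFNB1 itself had 1 read in 1 DDR-Sen library and none in the other libraries.

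Of the 11 listed matrix genes, 8 could be compared, 6 of them in the pooled test. The abundant COL1A1, COL1A2 and FN1 could not be read. LOX, the collagen cross-linking oxidase, was the gene that passed the test, going from 13367 and 13007 normalized reads to 11490 and 10044 (log2 fold change -0.30 ± 0.09, adjusted p = 0.0441), a call lost with library totals, with a mean of at least 100, and without DDR-Sen library B or either untreated library. The collagen genes COL3A1, COL4A1, COL4A2, COL5A1 and COL6A1 had log2 fold changes between -0.27 and 0.18 in the pooled test and none passed it. COL7A1, the anchoring fibril collagen, which is not on the list and was chosen after its value was seen, rose by 2.61 in the pooled test (adjusted p = 1.8e-05).

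The largest rises among genes with a mean of at least 100 include many that reached that mean through their DDR-Sen level, so a low untreated level there is part of the selection. CES3, a carboxylesterase on chromosome 16, had 4.6 and 3.75 normalized reads in untreated cells and 280 and 432 in DDR-Sen, a log2 fold change of 6.10 ± 0.98 (adjusted p = 0.00587). SULF2, which trims sulfate from heparan sulfate chains at the cell surface, went from 46.0 and 61.8 to 1268 and 2525 (5.06 ± 0.84). HES2, a transcriptional repressor, went from 7.66 and 3.75 to 168 and 245, and FUCA1, the lysosomal fucosidase, from 35.2 and 48.7 to 595 and 775. TNFRSF10C, a decoy receptor for the death ligand TRAIL, had 126 and 137 against 1438 and 1618, a log2 fold change of 3.54 ± 0.18. ACER2, the alkaline ceramidase of the Golgi, had 52.1 and 54.3 against 507 and 762. The dipeptide synthase CARNS1, the aldo-keto reductase AKR1B10, the synaptic gene INSYN2A, the interferon-inducible IFI27L1 and the unnamed transcript AL135905.1 complete the set with H2BC8, GDF15, NEDD8 and PSMC4, with log2 fold changes between 3.49 and 4.59.

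Some of these rises rest on reads that are hard to assign. PSMC4, a proteasome subunit gene, had 115 and 31.8 normalized reads in untreated cells and 755 and 2300 in DDR-Sen (log2 fold change 4.34 ± 1.28, adjusted p = 0.0461), and the libraries of each group were far apart. In the fit with 5 groups the call was lost for PSMC4 (adjusted p = 0.138), NEDD8 (adjusted p = 0.225) and IFI27L1 (adjusted p = 0.0555). NEDD8 shares exons with the readthrough gene NEDD8-MDP1 and with GMPR2 on the other strand, CARNS1 with PPP1CA and SULF2 with AL354813.1 and NCOA3 on the other strand, CES3 with AC009084.1 on the same strand and TNFRSF10C with AC107959.4 and AC107959.5. Strand in the counting was not given in the sources used here.

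Of the 13 mitochondrially encoded messenger RNAs, 9 were higher and none was lower, beside 14.3% of all genes higher in the pooled test and 73 of the 287 abundant genes tested with the pooled library alone. The log2 fold changes ran from 0.25 (MT-ND3) to 0.50 (MT-ND1) among those called. MT-ND1, a complex I subunit, had 38273 and 39667 normalized reads in untreated cells and a mean of 55476 in DDR-Sen (0.50 ± 0.09, adjusted p = 0.00402). All but MT-ND3 and MT-ATP8 were tested with the pooled library.

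By gene type, protein-coding genes were called more often than other genes and more often lower than higher. The types were not matched by read level. A gene low in untreated cells could also pass the mean of 10 through its DDR-Sen level alone. Of 12117 protein-coding genes with a GENCODE entry, 14.6% were higher and 17.8% lower. Of 741 genes annotated as antisense, 10.1% were higher and 3.1% lower, with a median log2 fold change of 0.24, and of 526 long intergenic RNAs, 8.94% and 3.61%, with a median of 0.21. Genes with a mean under 10 took 0.141% and 0.147% of the reads in DDR-Sen and 0.0978% and 0.0975% in untreated cells.

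Protein-coding genes also differed by the length of the gene in the genome. Of 883 genes of up to 5 kb, 18.1% were higher and 11.6% lower, with a median log2 fold change of 0.10. Of 184 genes longer than 500 kb, 10.3% were higher and 27.2% lower, with a median of -0.16. The medians of the 6 groups between fell in order of length, from 0.04 to -0.07. These are descriptions over genes, which are not independent replicates.

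To see which of these values set DXR apart from the other treatments at the same time, the DDR-Sen day 0 libraries were compared with those of PMD-Sen day 0 (24 h of 0.0090% SDS, a detergent that damages the plasma membrane) and Ca2+-Sen day 0 (24 h of 75 mM KCl), and with DDR-Sen day 2, which is 2 days after the drug was washed out. The differences themselves are taken without the untreated libraries, which enter the fit through the shared estimate of the spread. A fit over the 10 libraries of the 5 groups found 28.4% of 15163 genes above and 29.2% below their PMD-Sen level (57.6% either way), 33% and 33.2% against Ca2+-Sen (66.3%), and 13.1% and 15% against DDR-Sen day 2 (28.1%). In the same fit 18.4% of genes were higher and 19.5% lower than in untreated cells (37.9% either way). The counts against DDR-Sen day 2 were 1980 higher and 2280 lower. Both were smaller when either DDR-Sen day 2 library was left out, and the lower count also without DDR-Sen day 0 library B. Levels in the following are on the scale of that fit.

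Most p53 targets were higher after DXR than after either other treatment. Of 24 genes, 22 exceeded their PMD-Sen level and 1 lay under it (GADD45A), with a median log2 difference of 1.46. Of all genes, 28.4% and 29.2% did so. Against Ca2+-Sen, 18 were higher and 3 lower (AEN, PHLDA3 and PPM1D), beside 33% and 33.2% of all genes, with a median of 1.29. GADD45A had 4681 and 6267 normalized reads in DDR-Sen and 10200 and 8572 in PMD-Sen. Compared with untreated cells, 14 of the 24 were higher and 4 lower in Ca2+-Sen, beside 4227 and 4361 of all 15163 genes. In PMD-Sen 6 were higher and 8 lower, beside 3707 and 3724. FDXR had 4818 and 6729 normalized reads in DDR-Sen, 542 and 527 in PMD-Sen and 640 and 644 in Ca2+-Sen. MDM2 had 11350 and 13400, against 4843 and 4555 and against 3389 and 3224. GDF15 did not follow this order: it had 12780 and 19730 in DDR-Sen and 20380 and 17900 in PMD-Sen, a log2 difference of -0.27 ± 0.15 (adjusted p = 0.161). Against DDR-Sen day 2, 21 of 24 were higher on day 0 and none was lower, beside 13.1% and 15%, with a median of 0.84. MDM2 had 7148 and 6528 on day 2.

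Mitosis genes were lower after DXR than after the other treatments. Of 21, 20 were lower than in PMD-Sen (median log2 difference -2.12) and 21 were lower than in Ca2+-Sen (-2.57). Of all genes, 29.2% and 33.2% were lower in these comparisons. Compared with untreated cells, all 21 were also lower in PMD-Sen and in Ca2+-Sen, beside 3724 and 4361 of all 15163 genes. The medians there were -2.49 and -1.82. MKI67 had 88.8 and 99.2 normalized reads in DDR-Sen, 367 and 694 in PMD-Sen and 1054 and 1296 in Ca2+-Sen, all under the 5659 and 4424 of untreated cells. On day 2 of DDR-Sen it had 50.6 and 69.1. Of the 21 genes, 2 were lower on day 0 than on day 2, beside 15% of all genes, with a median difference of -0.04. Of 21 replication genes, 10 were lower and 4 higher than in PMD-Sen, beside 29.2% and 28.4% of all genes. Against Ca2+-Sen, 12 were lower and 5 higher, beside 33.2% and 33%. Compared with untreated cells, 20 were lower and 1 higher in PMD-Sen, and 20 lower and 0 higher in Ca2+-Sen. The gene that rose in PMD-Sen was the replication factor CDC6. It had 53 and 50.6 in DDR-Sen and 1261 and 1630 in PMD-Sen, while untreated cells had 871 and 758. The log2 difference between DDR-Sen and PMD-Sen was -4.78 ± 0.23 (adjusted p = 9.26e-08). Of the 21 replication genes, 7 were higher on day 0 than on day 2 and 4 were lower, beside 13.1% and 15% of all genes. Among the lower ones was MCM6, with 159 and 152 on day 0 and 301 and 320 on day 2. TK1, thymidine kinase, had 1073 and 1283 normalized reads on day 0 and 75.8 and 132 on day 2, and PCNA had 7327 and 9885 against 2603 and 2668.

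The histone gene H2BC8 had 1202 and 1308 normalized reads in DDR-Sen day 0, 164 and 125 in PMD-Sen, 193 and 181 in Ca2+-Sen and 202 and 214 on day 2 of DDR-Sen. Of 29 replication-dependent histone genes, 23 were higher and 1 lower (H2BC15) after DXR than in PMD-Sen, beside 28.4% and 29.2% of all genes. Against Ca2+-Sen, 22 were higher and 1 lower (H3C6), beside 33% and 33.2%. Members low in other groups could reach the mean of 10 through their DDR-Sen level alone, so these counts are partly set by that filter. Compared with untreated cells, 10 were higher and 1 lower in PMD-Sen, beside 3707 and 3724 of all 15163 genes. In Ca2+-Sen 13 were higher and 2 lower, beside 4227 and 4361, and on day 2 of DDR-Sen 10 and 0, beside 1149 and 1181. Secreted factors were divided against PMD-Sen. Of 9, 3 were higher after DXR (CCL2, IL1B and MMP3) and 4 were lower (IL6, CXCL8, VEGFA and IGFBP3), beside 28.4% and 29.2% of all genes. CCL2 had 320 and 620 normalized reads in DDR-Sen and 72.2 and 62 in PMD-Sen, a log2 difference of 2.70 ± 0.68 (adjusted p = 0.00632). IL6 had 113 and 171 normalized reads in DDR-Sen and 708 and 539 in PMD-Sen, a log2 difference of -2.17 ± 0.22 (adjusted p = 1.32e-05), and CXCL8 had 109 and 161 against 3997 and 2671 (-4.64 ± 0.38). LMNB1 had 66.4 and 51.9 in DDR-Sen, 86.6 and 124 in PMD-Sen, 142 and 196 in Ca2+-Sen and 49.5 and 52.7 on day 2, where the difference from day 0 did not pass the test (0.20 ± 0.33, adjusted p = 0.687).

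**Figure D5:**
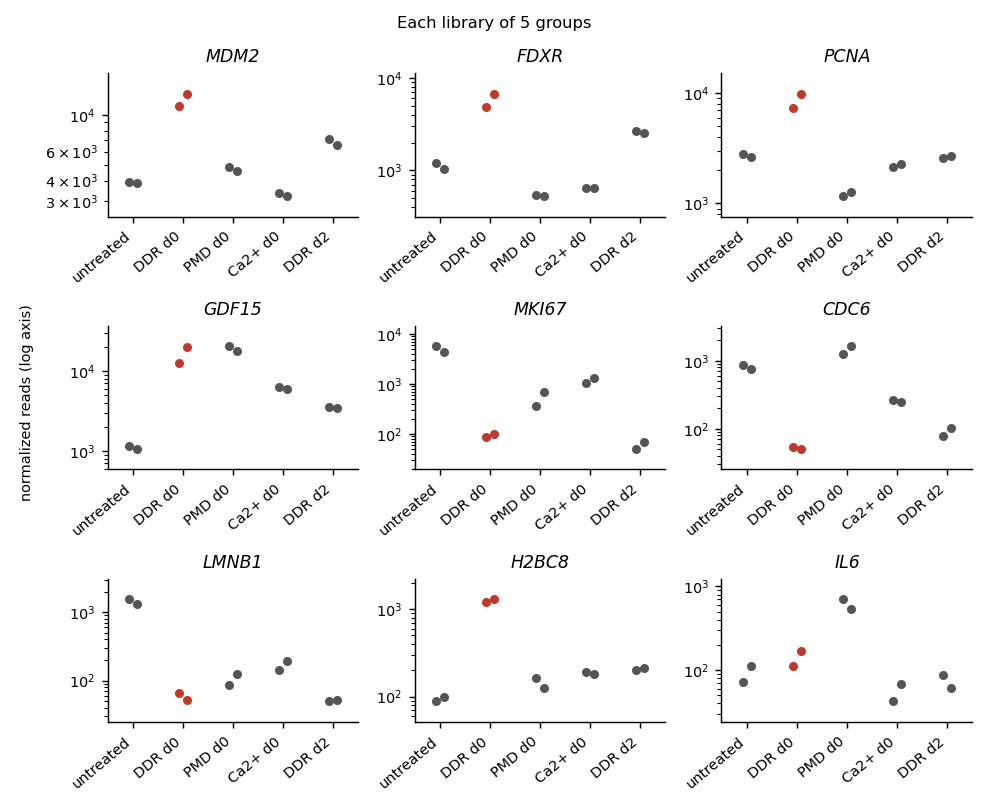
Normalized reads (y axis, log scale) of 9 genes in each of the 2 libraries of untreated cells, DDR-Sen day 0 (red), PMD-Sen day 0, Ca2+-Sen day 0 and DDR-Sen day 2. MDM2, FDXR, PCNA and H2BC8 are highest in the red libraries, and GDF15 and IL6 reach or exceed them in PMD-Sen.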

How the data were processed

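Messenger RNA of WI-38 cells, from extracted total RNA, was sequenced as paired reads. How messages were selected is not given in the sources used here. The labels name 52 samples in 26 groups, and DDR-Sen day 0 and untreated cells have 2 each. The submitters' processing notes name Trim Galore, HISAT2, HTSeq, featureCounts and DESeq2 and the build GRCh38 (hg38), without versions. For each group the authors deposited a table against untreated cells with the mean of normalized counts over 4 libraries, used here as a signal. The other columns hold the authors' own fold changes, standard errors and p-values, which were not used. Other columns of per-sample values numbered 0.

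Each mean is a sum of whole reads times a fixed step per library, and each step is the mean of a gene seen once in a single library. Libraries common to all tables are the untreated pair. Tables were solved jointly, 10 at once, by lattice reduction. A gene of DDR-Sen day 0 was split where a single pair of whole numbers gave the mean (14986 genes), or a single pair within 2-fold (179 genes). Size factors recomputed from the reads differed from the steps by at most 0.0968%. On simulated tables, 15217 of 15217 splits were right. The simulated reads were drawn around the recovered ones, so this does not test the 2-fold limit itself. The untreated libraries were the shallowest.

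The files hold no counts per library. Planned fits with edgeR's quasi-likelihood test and DESeq2's Wald test were not run, also not on the recovered reads. In their place, limma voom (limma 3.58.1, R 4.3.3) was fitted to the recovered reads, with libraries scaled by a trimmed mean of M values (30% and 5% trimmed) and p-values adjusted by the Benjamini-Hochberg method over all genes tested. Genes with an adjusted p under 0.05 are the ones called. For genes not split, the mean of the DDR-Sen pair entered as 1 column. On simulated counts of 15165 genes with 200 changed, 81.5% were recovered at a log2 fold change of 1, with 6.86% of the calls false. At a log2 fold change of 0.5, 27.5% were recovered, with 9.84% of the calls false, and with none changed 0 were called. The simulated spread was set to the same value for every gene. PMD-Sen, Ca2+-Sen and DDR-Sen day 2 libraries were recovered in the same way and fitted together with these.

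The members and gene lists were chosen with earlier results of these data known. Named genes are the 15 largest rises and falls among called genes whose mean reached 100, and the 3 largest changes in each direction of each list. Genes outside this rule, among them the histone and mitochondrial genes, were chosen after their values were seen. Some genes of the lists are counted but not reported here. Alternatives were the authors' size factors, library totals, other filters, limma-trend, a log2 fold change of at least 1 and leaving out each library. Python 3.11.15, NumPy 2.4.6, pandas 2.3.3 and matplotlib 3.10.9 were used, with the random seed 20240222. Gene positions, types and promoters came from RefSeq GRCh38.p14 and GENCODE v29, also GRCh38.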

Additional observations from a re-analysis of the deposited data

Results flagged for a closer look

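In 19 cases a gene of the lists moved in opposite directions from untreated cells after DXR and after another treatment, with the difference between the treatments itself tested (limma voom, 5 groups, adjusted p under 0.05). The comparisons with untreated cells share the untreated libraries, while the differences between treatments are taken without them, although they enter the shared estimate of the spread.

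Against PMD-Sen day 0, the p53 targets were higher after DXR by log2 differences of 3.41 (FDXR), 2.94 (BTG2), 2.70 (SESN1), 1.85 (DDB2), 1.68 (FAS), 1.42 (POLH) and 0.88 (CCNG1). BTG2 had a log2 fold change of 2.11 after DXR and -0.82 in PMD-Sen. The sliding clamp gene PCNA differed by 2.81, from 1.65 after DXR and -1.16 in PMD-Sen. The interferon-stimulated genes ISG15 and IFIT3 differed by 1.65 and 1.41. CDC6, which loads the replicative helicase, differed by -4.78, with -3.97 after DXR and 0.81 in PMD-Sen.

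Against Ca2+-Sen day 0, the differences were 3.15 (FDXR), 2.90 (TIGAR), 2.50 (XPC), 1.90 (MDM2), 2.10 (RAD51C) and 1.48 (ISG15). BRCA2 differed by -2.98, with -2.47 after DXR and 0.50 in Ca2+-Sen, and TOP2B by -0.68, with -0.50 and 0.18.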

How the results depend on the processing

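No paired analysis was possible because the recovered libraries carry no replicate number of the labels. The files hold no counts per library, and DESeq2's Wald test was not run on the recovered reads. Of 173 genes of the lists and named sets, none was called in the opposite direction under any of the 12 settings in which they were tested. Some lost their call when an untreated library was left out. Changes of sign among genes not called are not covered by this, as in CXCL8, where the untreated pair spanned the DDR-Sen pair. Leaving out each library in turn moved the genes called to between 1651 and 4894, higher to between 732 and 2384 and lower to between 919 and 2510. With a log2 fold change of at least 1, these counts were 1346, 742 and 604, topoisomerases lower were 1, and DNA repair higher, interferon higher and matrix lower were 0. Leaving out each library also gave topoisomerases lower from 1 to 3, DNA repair higher from 0 to 1, DNA replication higher from 1 to 2, secreted genes higher from 1 to 5, interferon genes higher from 0 to 5 and matrix genes lower from 0 to 1, and from DDR-Sen day 2 it gave from 950 to 2286 genes higher and from 920 to 1961 lower. The secreted genes called higher were 4 with the pooled library and 4 with 5 groups, where 1 was also lower (CCL2). Matrix genes lower were 0 with library totals, with a mean of at least 100, among genes with a single solution and with 5 groups, where LOX is not in the last 2. Between DDR-Sen day 0 and day 2, 1503 genes were lower with only these groups in the fit. The pooled library, library totals, limma-trend, the genes with a single solution, the fit of 5 groups and the alternatives for the direct comparisons were chosen after seeing the data.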
